A study of Mus musculus with 20 samples.

Results

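The 10 genes described here encode MHC class I molecules and the machinery that loads them with peptides: B2m, H2-K1, H2-D1, Tap1, Tap2, Tapbp, Psmb8, Psmb9, Psmb10 and Nlrc5. The list names them by role and uses no threshold on their values, and all 10 were found among the 23020 rows of the expression table. RNA of 20 libraries from C57BL/6 mice was measured by bulk sequencing of poly(A) transcripts at their 3' ends, in which molecular barcodes let each captured molecule count once. The tissue was crypts of the small intestine, pockets of the epithelium in which stem cells, dividing cells and Paneth cells reside. The 4 groups were Xiap-/- mice co-housed with wild-type (WT) mice for 4 weeks (n = 5), the WT mice co-housed with them (n = 5), Xiap-/- mice housed apart, that is, by genotype (n = 4), and WT mice housed apart (n = 6). Xiap encodes an inhibitor of apoptosis proteins family member, a ubiquitin ligase that restrains cell death and takes part in signalling of innate immune receptors. The labels give neither the deleted part of Xiap nor the age, sex or cage of the mice, and genotype means that of the label throughout. They also do not say which WT and Xiap-/- mice shared a cage, so the p-values below rest on the spread between libraries taken as independent.

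MHC class I molecules show peptides from inside a cell to CD8 T cells and natural killer cells. The immunoproteasome subunits encoded by Psmb8, Psmb9 and Psmb10 cut proteins into peptides, the transporter made of TAP1 and TAP2 carries these into the endoplasmic reticulum, and tapasin (Tapbp) holds the empty class I molecule at the transporter. The heavy chain (H2-K1 or H2-D1) then leaves for the cell surface with beta-2-microglobulin (B2m). NLRC5 is a transactivator of class I genes, and interferon-gamma raises transcription of most of these genes in many cell types, gut epithelium included.

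Of the 10 genes, 7 lie in the MHC on chromosome 17, within 1351601 bases from the start of Tapbp to the end of H2-D1 (GRCm38, GENCODE annotation). B2m lies on chromosome 2 (122147686 to 122153083, forward strand), Psmb10 on chromosome 8 (105935735 to 105938444, reverse strand) and Nlrc5 also on chromosome 8 (94434356 to 94527272, forward strand). Promoter windows of 300 bases, from 250 before to 50 after the start of transcription, were taken from RefSeq (GRCm38.p6). In it 8 of the 10 genes were matched, while Tap2 and Nlrc5 were not and could not be searched. The windows were searched on both strands for an interferon-stimulated response element, a GAS element, a CCAAT box and a kappa B site. The windows of B2m, H2-K1, H2-D1 and Psmb9 are shown because the first 3 make up the class I molecule itself and the last overlaps that of Tap1. Capitals mark the motif matches, and each window is written 5′ to 3′ along the strand of its gene. They lie at chr2:122147437-122147736 (B2m, forward), chr17:34000298-34000597 (H2-K1, reverse), chr17:35262844-35263143 (H2-D1, forward) and chr17:34187281-34187580 (Psmb9, reverse).
B2m: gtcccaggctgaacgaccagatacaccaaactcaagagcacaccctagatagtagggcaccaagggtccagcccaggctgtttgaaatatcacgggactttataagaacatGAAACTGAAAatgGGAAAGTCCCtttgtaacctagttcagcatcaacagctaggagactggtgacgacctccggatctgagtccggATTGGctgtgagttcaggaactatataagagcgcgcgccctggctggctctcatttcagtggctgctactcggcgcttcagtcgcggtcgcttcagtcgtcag
H2-K1: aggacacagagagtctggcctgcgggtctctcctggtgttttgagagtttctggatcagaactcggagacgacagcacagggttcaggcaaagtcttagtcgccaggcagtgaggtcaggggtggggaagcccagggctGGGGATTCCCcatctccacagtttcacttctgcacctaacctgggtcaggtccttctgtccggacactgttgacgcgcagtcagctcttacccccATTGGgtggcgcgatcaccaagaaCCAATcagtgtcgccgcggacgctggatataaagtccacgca
H2-D1: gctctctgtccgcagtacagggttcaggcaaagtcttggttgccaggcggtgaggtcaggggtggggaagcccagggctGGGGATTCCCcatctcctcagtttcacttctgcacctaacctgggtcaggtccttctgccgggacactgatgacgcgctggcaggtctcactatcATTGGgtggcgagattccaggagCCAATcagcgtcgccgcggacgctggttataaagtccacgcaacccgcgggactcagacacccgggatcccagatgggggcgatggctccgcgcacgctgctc
Psmb9: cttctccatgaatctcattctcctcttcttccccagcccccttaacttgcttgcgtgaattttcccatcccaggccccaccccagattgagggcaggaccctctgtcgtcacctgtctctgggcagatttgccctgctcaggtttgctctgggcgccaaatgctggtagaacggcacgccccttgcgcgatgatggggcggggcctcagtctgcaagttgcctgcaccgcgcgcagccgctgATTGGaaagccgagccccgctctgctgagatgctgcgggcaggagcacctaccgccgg
The interferon-stimulated response element was searched as GAAA, any 2 bases and GAAA. It was matched in 3.44% of 32851 promoter windows and, among the 8 genes, in B2m, at position -139 from the start. The kappa B site was searched as GGG, any 2 bases, TT, any base and CC, and was matched in 4.79% of all windows and in B2m, H2-K1 and H2-D1. In H2-K1 and H2-D1 the matched letters were GGGGATTCCC in both, and a local alignment of these windows had 206 identical positions of 228, or 90.4%. The GAS element was searched as TTCNNNGAA, N being any base, and was matched in 8.3% of all windows and, among the 8 genes, in Psmb8. CCAAT or its reverse complement ATTGG, the CCAAT box, was matched in 37.4% of all windows and in B2m, H2-K1, H2-D1, Tap1, Tapbp and Psmb9. Psmb9 and Tap1 are transcribed in opposite directions from starts 226 bases apart, and their windows share 275 bases. Their CCAAT box matches, at -8 from the Psmb9 start and -222 from the Tap1 start, are therefore the same site, listed for both genes.

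All values are the deposited normalized levels on a log2 scale, so a difference of 1 is a doubling on that scale. Markers of the labelled tissue were abundant in every group, with 8 of 8 epithelial (Epcam mean 11.57) and 7 of 7 Paneth cell markers tested. Absorptive cell markers were about as abundant, with 7 of 7 tested and Fabp2 at 13.75. Their summed level had group medians of 15.23 to 15.47, against 15.39 to 15.46 for Paneth cell markers. For markers of stem and dividing crypt cells these were 9.48 to 9.76, so the libraries did not hold RNA of crypt base cells alone. Markers of T and NK cells were also present, with 17 of 20 above the minimum mean used for testing (3.32, log2 of 10) and Gzma at 9.16. The other 3 of the 20 were Cd8b1 (1.78), Cd4 (-0.51) and Cd2 (-0.87). By the same minimum, 4 of 11 B and plasma cell markers, 5 of 16 myeloid, 1 of 14 stromal and 1 of 7 hepatocyte markers were measured. The text on RNA extraction names liver while every other label names crypts. Depth per library is unknown. A proxy was taken from the rarest genes (mean below -3), as the percentage of them lying over 0.015 higher than their median across libraries. It was 4.69% to 12.35% in co-housed Xiap-/-, 7.5% to 11.11% in co-housed WT, 9.55% to 32.15% in Xiap-/- housed apart and 4.58% to 14.89% in WT housed apart. The value of 32.15% belongs to Xiap-/- housed apart replicate 2, which stands apart from the other libraries. The value of 14.89% belongs to WT housed apart replicate 5. All other WT libraries housed apart had 4.58% to 7.55%, below every Xiap-/- library housed apart, so the proxy went largely with genotype in this housing. The Xiap transcript itself was 6.38 ± 0.10 in Xiap-/- and 6.81 ± 0.17 in WT mice housed apart (SD), a difference of -0.43 (exact permutation p = 0.00476 over 210 splits, two-sided). In co-housed mice it was 6.62 ± 0.22 in Xiap-/- and 6.67 ± 0.20 in WT (difference -0.05, exact permutation p = 0.683). Because the deleted part of Xiap is not given and only 3' ends were read, this level is no check of the genotype of a library. In such bulk samples, fewer cells of a type and less RNA per cell cannot be told apart.

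The levels of the 10 genes spanned a wide range, and their order was nearly the same in all 20 libraries. Since each transcript is read at its 3' end, the levels are not scaled by length, and the order describes captured tags. B2m (11.26 on the log2 scale, mean of 20 libraries) and the heavy chain H2-K1 (11.24) stood highest, and B2m was above H2-K1 in 14 of 20 libraries. The heavy chain H2-D1 (9.92) and Psmb10 (9.88), the immunoproteasome subunit with trypsin-like activity, came next, and H2-D1 was above Psmb10 in 11 of 20 libraries. Neither of these neighbours differed beyond the spread between libraries. Tapasin (Tapbp, 8.83), Psmb8 (8.30), Psmb9 (8.0), Tap1 (7.22), Tap2 (5.69) and Nlrc5 (2.78) followed, each above the next in 20 of 20 libraries. The transporter's subunits thus differed in level by more than the whole range of either (Tap1 6.88 to 7.66, Tap2 5.31 to 6.15). The transactivator Nlrc5 lay below the minimum mean in every library (2.46 to 3.05), so 9 of the 10 genes were tested.

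**Figure D1:**
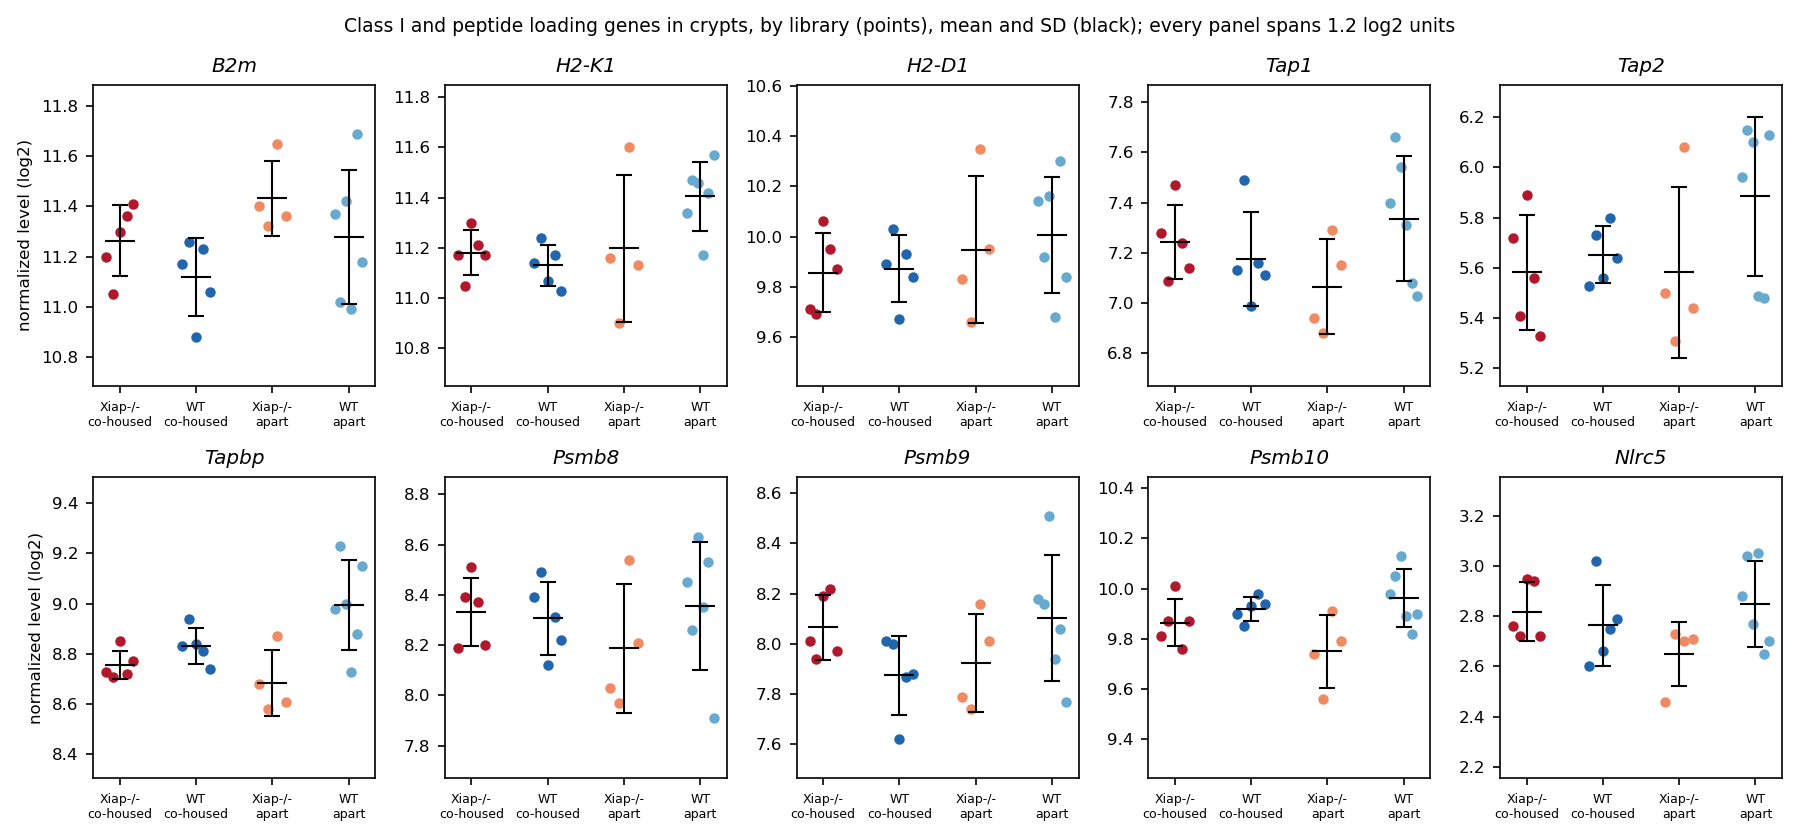
Normalized level (log2) of the 10 genes by library, with 1 panel per gene, 1 point per library and black lines for the mean and SD of each group. Every panel spans 1.2 log2 units, and in all panels the points of the 4 groups overlap.

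In mice housed apart, the question was whether crypts of Xiap-/- and WT mice differ when each genotype lives with its own kind. Levels were lower in Xiap-/- than in WT mice for 8 of the 9 tested genes, by 0.06 to 0.31 on the log2 scale, and B2m was higher by 0.15. None of these differences passed (limma, adjusted p of 0.107 to 0.863), where 0.452% of the 9521 tested genes did. At an unadjusted p under 0.05 stood 3 of the 9, Tapbp, Tap1 and Psmb10, all lower, where 15.8% of all tested genes reached that p and 7.99% did so with a lower level. The median difference of the 9 was -0.21, against -0.0028 over all tested genes, of which 50.9% lay below 0. The 9 genes varied together between libraries, as described below, so their signs, here and in the other comparisons, are not separate results. For none of the 9 were the groups free of overlap, which 1.05% of all tested genes were in the lower direction.

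Tapbp encodes tapasin, the chaperone that keeps class I molecules at the transporter until a peptide binds (chromosome 17, 33915899 to 33929292, forward strand). Its level was 8.68, 8.58, 8.87 and 8.61 in Xiap-/- mice housed apart, against a lowest of 8.73, a median of 8.99 and a highest of 9.23 in WT mice housed apart. Of the 4 Xiap-/- libraries, 3 lay below every WT library and replicate 3 lay inside their range. The difference was -0.31 (95% interval -0.50 to -0.12, limma adjusted p = 0.107), or 0.807 of the WT level. It passed without WT housed apart replicate 5 (-0.33, limma adjusted p = 0.0282), when 697 of 9520 genes passed against 43 with it. That library had the highest depth proxy of its group (14.89%). Without it the proxy did not overlap between the genotypes housed apart, and the part of depth was not tested. The Tapbp difference also passed with quality weights per library (-0.36, limma adjusted p = 0.00838), when 385 of all genes did.

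The transporter genes were lower by a like amount and with a wider spread. Tap1 (chromosome 17, 34187553 to 34197225, forward strand) had levels of 6.94, 6.88, 7.29 and 7.15 in Xiap-/- mice housed apart, against a lowest of 7.03, a median of 7.35 and a highest of 7.66 in WT mice. Its difference was -0.27 (interval -0.51 to -0.04, limma adjusted p = 0.251). Both low values in Xiap-/- mice lay under all WT values and the other 2 lay inside the WT range. Tap2 (chromosome 17, 34203527 to 34216321, forward strand) had 5.50, 5.31, 6.08 and 5.44 in Xiap-/- mice, against 5.48, 6.03 and 6.15 as lowest, median and highest in WT mice. Its difference was -0.30 (interval -0.61 to 0.0011, limma adjusted p = 0.317). In Tap2 the WT libraries fell into a higher set of 4 and a lower set of 2 that lay among the Xiap-/- values. With quality weights per library its difference was -0.45 and passed (limma adjusted p = 0.0325).

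Among the immunoproteasome subunits, Psmb10 came nearest to the threshold. It had 9.74, 9.56, 9.91 and 9.79 in Xiap-/- mice housed apart, against a lowest of 9.82, a median of 9.94 and a highest of 10.13 in WT mice, and 3 of 4 Xiap-/- values lay under all WT values. The difference was -0.21 (interval -0.39 to -0.03, limma adjusted p = 0.252). Psmb8 (chromosome 17, 34197721 to 34201454, forward strand), the subunit with chymotrypsin-like activity, had 8.03, 7.97, 8.54 and 8.21 in Xiap-/- mice, against 7.91, 8.40 and 8.63 as lowest, median and highest in WT mice, a difference of -0.16 (interval -0.40 to 0.08). Psmb9 (chromosome 17, 34181987 to 34187764, reverse strand), the third inducible catalytic subunit, had 7.79, 7.74, 8.16 and 8.01 in Xiap-/- mice, against 7.77, 8.11 and 8.51 in WT mice. Its difference was -0.18 (interval -0.41 to 0.05). For both genes the groups overlapped widely, and replicate 3 was the highest Xiap-/- library.

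The class I molecule itself showed no common direction. H2-K1 (chromosome 17, 33996017 to 34000347, reverse strand) had 11.16, 10.90, 11.60 and 11.13 in Xiap-/- mice housed apart, against 11.17, 11.44 and 11.57 as lowest, median and highest in WT mice. The Xiap-/- group thus held both the highest and the lowest H2-K1 level of all 20 libraries, and the difference was -0.21 (interval -0.43 to 0.02, limma adjusted p = 0.366). H2-D1 (chromosome 17, 35262730 to 35267499, forward strand) had 9.83, 9.66, 10.35 and 9.95 in Xiap-/- mice, against 9.68, 10.03 and 10.30 as lowest, median and highest in WT mice. The same 2 Xiap-/- libraries were its extremes over all 20, and the difference was -0.06 (interval -0.31 to 0.19). B2m, the light chain of class I molecules, had 11.40, 11.32, 11.65 and 11.36 in Xiap-/- mice, against 10.99, 11.27 and 11.69 as lowest, median and highest in WT mice. The Xiap-/- values lay within the WT range, and the difference was 0.15 (interval -0.09 to 0.40, limma adjusted p = 0.563).

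**Figure D2:**
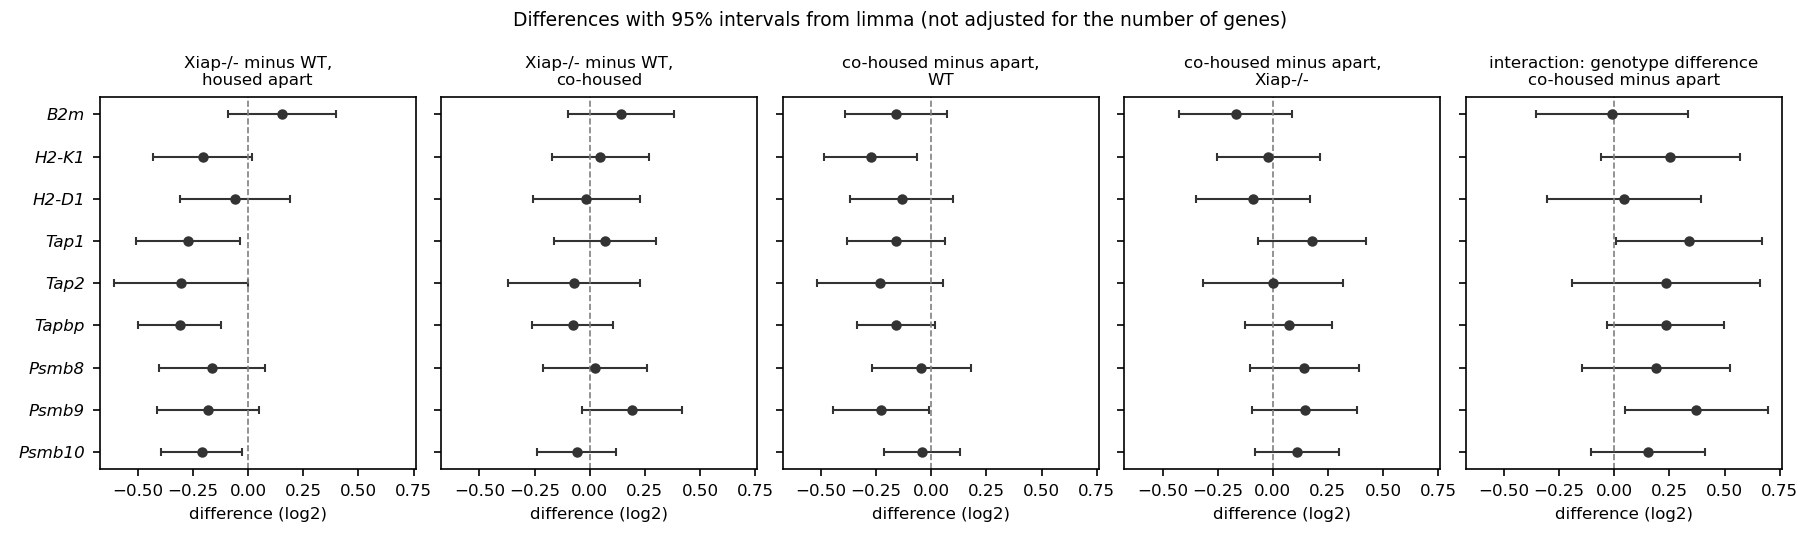
Difference in log2 level (points) with its 95% interval from limma (bars, not adjusted for the number of genes tested) for the 9 tested genes in each of the 5 comparisons. Of the 9 points, 8 lie left of 0 between genotypes housed apart and 9 do so between housings of WT mice, and most intervals cross 0.

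Replicate 2 of the Xiap-/- mice housed apart, the library with the highest depth proxy, was the lowest of all 20 for H2-K1, H2-D1, Tap1, Tap2, Tapbp and Psmb10. Replicate 3 of the same group lay above the mean of all libraries for 9 of 9 genes. Without replicate 2 the median difference of the 9 genes between genotypes housed apart was -0.12, and that of Tapbp was -0.28 (limma adjusted p = 0.255). Without replicate 3 the median was -0.28 and that of Tapbp -0.37 (limma adjusted p = 0.095). With the depth proxy as a covariate the median was -0.12, that of Tapbp -0.22 (limma adjusted p = 0.854) and that of Tap2 -0.10. Markers of T and NK cells had a median difference of -0.0040 between genotypes housed apart, with 10 of 17 below 0. Those of B and plasma cells were below 0 in 4 of 4 tested of 11, with a median of -0.49, 1 of them at an unadjusted p under 0.05 and 0 past the threshold. The antibody heavy chain Igha was the most abundant of these, at -0.87 (interval -1.58 to -0.16, limma adjusted p = 0.225). The summed level of the B and plasma cell markers was 6.20 to 6.45 in Xiap-/- mice housed apart and 6.19 to 7.31 in WT mice housed apart. Of all lists of pathway and marker genes, the only gene to pass in any comparison was Ttr, from the hepatocyte list. It was 0.42 higher in Xiap-/- than in WT mice housed apart (limma adjusted p = 0.0346). Ttr (mean 4.11) was the only gene of that list above the minimum mean. Others lay far below it, such as Alb at -2.70 and Serpina1a at -2.72, so Ttr alone does not mark liver RNA here. The part of these marker genes in the class I differences was not tested.

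After 4 weeks of co-housing the genotypes were nearly level. The differences of the 9 genes lay between -0.08 and 0.19, 4 below 0 and 5 above, with a median of 0.02 (0.0037 over all tested genes, 48.9% of them below 0). None passed (limma, smallest adjusted p 0.499), where 0.0315% of all tested genes did, and 0 of 9 had an unadjusted p under 0.05, where 12% of all tested genes had. Tapbp had 8.73, 8.71, 8.85, 8.72 and 8.77 in co-housed Xiap-/- mice, against 8.83, 8.94, 8.84, 8.81 and 8.74 in co-housed WT mice. These ranges overlapped, and the difference was -0.08 (interval -0.26 to 0.11). Tap1 had 7.28, 7.09, 7.47, 7.24 and 7.14 in co-housed Xiap-/- mice, against 7.13, 7.49, 6.99, 7.16 and 7.11 in co-housed WT mice, a difference of 0.07 (interval -0.16 to 0.30). The largest difference was that of Psmb9, which had 8.01, 7.94, 8.19, 8.22 and 7.97 in co-housed Xiap-/- mice, against 8.01, 8.0, 7.62, 7.87 and 7.88 in co-housed WT mice. Here 2 of 5 Xiap-/- values lay above every WT value, and the difference was 0.19 (interval -0.03 to 0.42, limma adjusted p = 0.499). B2m had 11.05 to 11.41 in co-housed Xiap-/- and 10.88 to 11.26 in co-housed WT mice, H2-K1 had 11.05 to 11.30 in co-housed Xiap-/- and 11.03 to 11.24 in co-housed WT mice, and H2-D1 had 9.69 to 10.06 in co-housed Xiap-/- and 9.67 to 10.03 in co-housed WT mice. For all 3 the ranges overlapped. Intervals for B2m (-0.10 to 0.38), H2-K1 (-0.17 to 0.27), H2-D1 (-0.26 to 0.23), Tap2 (-0.37 to 0.23), Psmb8 (-0.21 to 0.26) and Psmb10 (-0.24 to 0.12) all held 0 and left room for differences of 0.2 or more in at least 1 direction. Markers of T and NK cells were above 0 in 17 of 17 (median 0.18, 0 past the threshold), those of B and plasma cells in 3 of 4 (median 0.05), and their part was not tested.

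Between housings, co-housed WT mice had lower levels than WT mice housed apart for 9 of 9 genes, by 0.04 to 0.27, with a median of -0.16 (-0.0055 over all tested genes, 51.9% of them below 0). This comparison shares the WT mice housed apart with the genotype comparison above. None passed, and the share of all tested genes that passed was 0% (limma, 0 of 9521; 969 genes had an unadjusted p under 0.05). At an unadjusted p under 0.05 stood H2-K1 and Psmb9, where 10.2% of all tested genes reached that p and 4.87% did so with a lower level. H2-K1 had 11.14, 11.24, 11.07, 11.17 and 11.03 in co-housed WT mice, against a lowest of 11.17, a median of 11.44 and a highest of 11.57 in WT mice housed apart. Only the lowest of the WT mice housed apart lay within the co-housed range, and the difference was -0.27 (interval -0.48 to -0.06, limma adjusted p = 0.389). Psmb9 averaged 7.88 ± 0.16 (SD, n = 5) in co-housed WT mice and 8.10 ± 0.25 (n = 6) in WT mice housed apart, a difference of -0.23 (interval -0.44 to -0.01, limma adjusted p = 0.478). Markers of several cell types were lower in this comparison too. All 17 tested ones of T and NK cells were lower in co-housed WT mice, 6 of them at an unadjusted p under 0.05 and 0 past the threshold, with a median of -0.24. Their summed level was 9.93 to 10.63 in co-housed WT mice and 10.35 to 11.19 in WT mice housed apart, and Cd3e, a chain of the T cell receptor complex named after its values were seen, differed by -0.32 (limma adjusted p = 0.373). Also lower were 8 of 8 epithelial markers (median -0.06), 5 of 5 goblet cell (-0.20), 5 of 7 absorptive cell (-0.22) and 4 of 4 B and plasma cell markers (-0.15), and 6 of 6 class II genes (-0.23). Paneth cell markers were lower in 5 of 7 (median -0.02). Higher in co-housed WT mice were 6 of 8 markers of stem and dividing crypt cells (median 0.08) and 3 of 5 myeloid markers (0.0015). None of these genes passed, and their part in the class I difference was not tested.

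In Xiap-/- mice the same housing comparison had the other sign for most genes. The differences between co-housed Xiap-/- mice and Xiap-/- mice housed apart ranged from -0.17 (B2m) to 0.18 (Tap1), 6 above 0 and 3 below, with a median of 0.07 (4e-04 over all tested genes, 49.8% of them below 0). None passed (limma, smallest adjusted p 0.604), where 0.147% of all tested genes did, and 0 of 9 had an unadjusted p under 0.05, where 11.3% of all tested genes had. The immunoproteasome subunits Psmb8, Psmb9 and Psmb10 differed by 0.14, 0.14 and 0.11, and Tap1 by 0.18 (interval -0.07 to 0.42). Markers of T and NK cells had a median of -0.06 here, with 14 of 17 below 0 and a summed level of 10.15 to 11.19 in co-housed Xiap-/- mice and 10.51 to 11.32 in Xiap-/- mice housed apart. Those of B and plasma cells were above 0 in 4 of 4 (median 0.42), class II genes in 6 of 6 (0.50), and absorptive cell markers below 0 in 7 of 7 (-0.28). None of these genes passed, and their part was not tested.

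Whether the genotype difference itself changed with housing was tested as an interaction, the difference co-housed minus the difference housed apart. It was above 0 for 8 of 9 genes, with a median of 0.23 (-0.0036 over all tested genes, 50.9% of them below 0). Both genotype differences are given above, so this count of signs adds no separate result. None of the 9 genes passed (limma, smallest adjusted p 0.639), where 0.0105% of all tested genes did. At an unadjusted p under 0.05 stood Psmb9 (0.37, interval 0.05 to 0.70) and Tap1 (0.34, interval 0.01 to 0.67), where 7.05% of all tested genes reached that p and 3.84% did so with a higher value. H2-K1 (0.25), Tap2 (0.23), Tapbp (0.23), Psmb8 (0.19) and Psmb10 (0.15) had intervals that held 0, and H2-D1 (0.04) and B2m (-0.01) were near 0. Markers of T and NK cells were above 0 in 15 of 17 (median 0.17), with Cd3e at 0.49 (interval 0.15 to 0.83, limma adjusted p = 0.51), and those of B and plasma cells in 4 of 4 (median 0.53). None of these markers passed, and their part was not tested.

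Nlrc5, below the minimum mean, had levels of 2.76, 2.72, 2.95, 2.94 and 2.72 in co-housed Xiap-/- mice and of 2.60, 3.02, 2.66, 2.75 and 2.79 in co-housed WT mice. In mice housed apart it had 2.46, 2.73, 2.70 and 2.71 in Xiap-/- mice, against a lowest of 2.65, a median of 2.83 and a highest of 3.05 in WT mice. The ranges overlapped in both housings. With no minimum mean, which brings all 23020 genes into the fit, its genotype difference was -0.20 housed apart (limma adjusted p = 0.386) and 0.05 co-housed (limma adjusted p = 0.868). Its housing difference was -0.08 in WT and 0.16 in Xiap-/- mice (limma adjusted p = 0.851 and 0.637), and the interaction was 0.25 (limma adjusted p = 0.835). The effect of the transformation on differences at such low levels was not tested.

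In the immunoproteasome, PSMB8, PSMB9 and PSMB10 take the places of the constitutive catalytic subunits PSMB5, PSMB6 and PSMB7. In the log2 difference of each inducible to its constitutive partner within a library, a scaling factor common to the library cancels, while other normalizations and the transformation can still move it. Psmb8 stood above Psmb5 in 20 of 20 libraries (mean difference 2.54) and Psmb10 above Psmb7 in 20 of 20 (5.11), while Psmb9 stood below Psmb6 in all 20 (-1.05). As no transcript is scaled by length or capture, these means are not subunit ratios in the particle. Of 12 comparisons between groups, 0 passed after adjustment over the 12 (smallest adjusted p 0.267), and 1 had an unadjusted exact permutation p under 0.05. Psmb10 minus Psmb7 was 4.84, 4.76, 4.80 and 5.01 in Xiap-/- mice housed apart, against a lowest of 4.88 and a highest of 5.48 in WT mice housed apart. The low WT value was that of replicate 5, and the other 5 WT libraries lay above all Xiap-/- ones. The means were 4.85 ± 0.11 (n = 4) in Xiap-/- and 5.28 ± 0.22 (n = 6) in WT mice, a difference of -0.43 (exact permutation p = 0.0238 over 210 splits, adjusted p = 0.267). Housed apart, Psmb9 minus Psmb6 differed by -0.24 (exact permutation p = 0.081) and Psmb8 minus Psmb5 by -0.30 (exact permutation p = 0.105) between Xiap-/- and WT mice. Co-housed, the 3 differences were 0.11, -0.19 and -0.15 in the order Psmb9, Psmb8, Psmb10 (exact permutation p of 0.278, 0.254 and 0.19). The constitutive subunits themselves were higher in Xiap-/- than in WT mice housed apart, Psmb7 by 0.22 (limma adjusted p = 0.289), Psmb5 by 0.14 and Psmb6 by 0.06, and none passed.

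**Figure D3:**
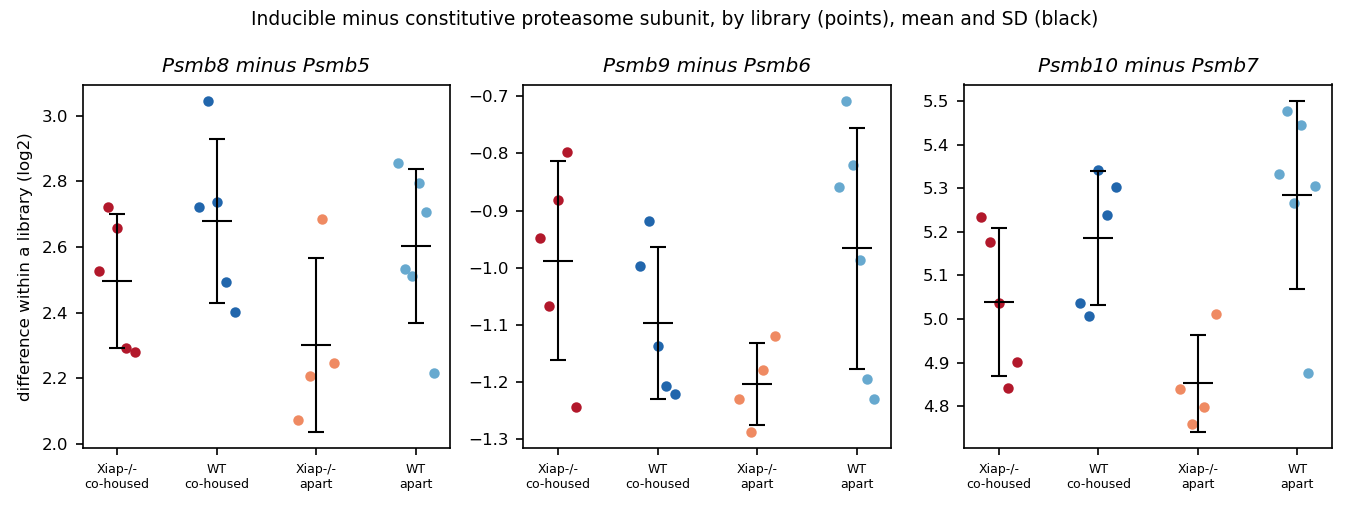
Log2 difference of each inducible proteasome subunit to its constitutive partner within a library, by group, with 1 point per library and black lines for the mean and SD. For Psmb10 minus Psmb7 the 4 Xiap-/- libraries housed apart lie between 4.76 and 5.01, and 5 of the 6 WT libraries housed apart lie above them.

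The genes varied together between libraries of the same group. After removal of group means, all 36 pairs of the 9 tested genes had a Pearson r above 0 over the 20 libraries, with a median of 0.49, and 9 pairs reached 0.7. The libraries share tissue, preparation and scaling, so these values are a description. No share or median for pairs of all tested genes is given beside them, so they show nothing particular to these genes. The closest pairs were B2m with H2-D1 (0.86), Psmb8 with Psmb9 (0.83), Tap2 with Tapbp (0.80), H2-K1 with Tapbp (0.79), and H2-D1 with Psmb8 (0.78). The least related were Tapbp with Psmb8 (0.04) and B2m with Psmb10 (0.05). H2-K1, Tap2 and Tapbp thus all followed each other closely, while B2m and Psmb8 each followed H2-D1 more closely than each other (0.57). For the neighbours Psmb9 and Tap1, the 1 pair tested, Pearson r was 0.76 (permutation p = 0.00123) and Spearman rho 0.75 (permutation p = 0.00117), with group means removed and 100000 shuffles within groups. The p is against no relation, and 6 of the other pairs had a higher r, so it shows nothing particular to the neighbours. Pearson r was 0.71 without the 2 libraries farthest from the median of Psmb9, WT housed apart replicates 3 and 6. Relations of Nlrc5 with the other genes were not run because it lay under the minimum mean.

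**Figure D4:**
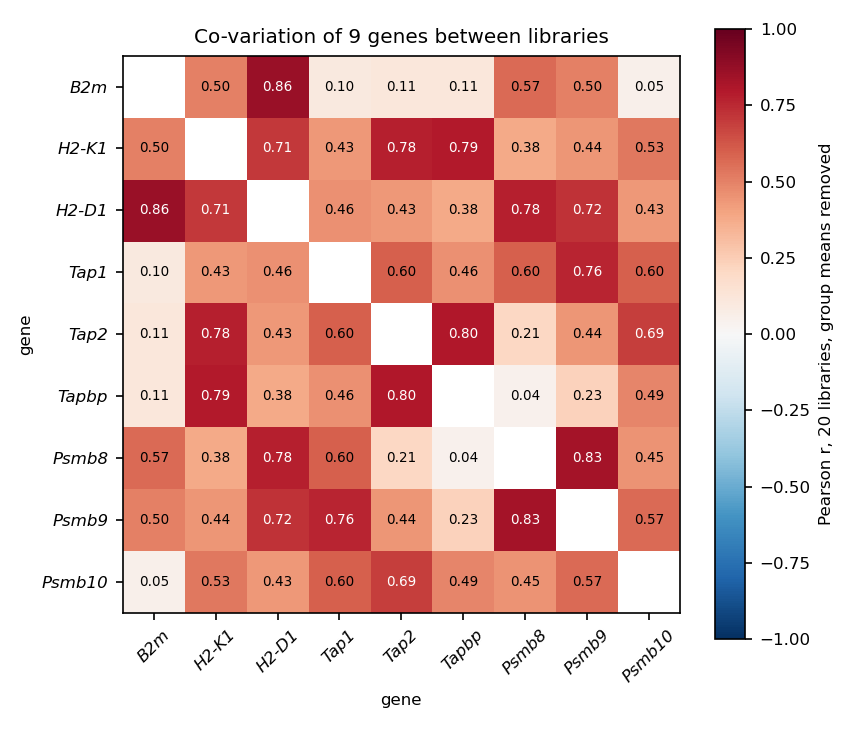
Pearson r between each pair of the 9 tested genes over 20 libraries after removal of group means, printed in each square and coloured from -1 (blue) to 1 (red). All squares are above 0, from 0.04 for Tapbp with Psmb8 to 0.86 for B2m with H2-D1.

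Genes whose level followed the mean of the 9 most closely over the 20 libraries were Hcst (Pearson r 0.829), Oasl1 (0.828), Rab17 (0.825), Lgals3 (0.822) and Shfm1 (0.807). With group means removed they were Sec61b (0.848), Ifi47 (0.844), Lgals3 (0.827), Oasl1 (0.823) and Chchd2 (0.816). Oasl1 and Ifi47 are known as interferon-induced genes, Hcst encodes a signalling adaptor of NK and T cell receptors, and Sec61b a subunit of the channel into the endoplasmic reticulum. Rab17, Lgals3, Shfm1 and Chchd2, at r of 0.807 to 0.827, are not described here, so these roles do not characterize the whole list. How many tested genes had a similar r is not given.

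The rest of the pathway gave no gene past the threshold in any of the 5 comparisons. Of 19 other class I heavy chains, 8 were tested, and the most abundant, H2-Q2 (9.05) and H2-T3 (8.64), differed by 0.19 and -0.03 between Xiap-/- and WT mice housed apart. Of 16 other genes of peptide loading and trimming, 15 were tested. Their most abundant were the chaperones Canx (10.11), which holds newly made heavy chains, and Hspa5 (9.98), with differences of -0.17 and -0.06. Of 21 other proteasome subunits and activators, 20 were tested, with Psme1 (9.45, the interferon-induced activator PA28 alpha) at -0.13 and Psma7 (9.40) at 0.15. At an unadjusted p under 0.05 between genotypes housed apart stood 0 of the 8, 1 of the 15 (lower) and 6 of the 20 (4 higher, 2 lower), where 15.8% of all tested genes did. The medians of these 3 lists were 0.06, -0.04 and 0.05, beside -0.21 for the 9 genes. Of 10 genes for receptors that read class I, Cd8a (5.53) and Klrd1 (3.88) were tested, with differences of -0.0024 and 0.04.

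Regulators of class I transcription were well represented, with 26 of 29 tested. Of these, 5 had an unadjusted p under 0.05 between genotypes housed apart, where 15.8% of all tested genes had. Lower were 3 of the 5, where 7.99% of all tested genes had that p with a lower level. The 2 higher ones were chains of the interferon-gamma receptor, Ifngr1 (0.24, limma adjusted p = 0.261) and Ifngr2. The most abundant regulators, Ifngr2 (8.34) and the transcription factor Irf8 (8.07), differed by 0.23 (limma adjusted p = 0.253) and -0.09. The 3 lower ones and Ifngr1 are named after their values were seen. Socs3, an inhibitor of cytokine signalling, averaged 3.93 ± 0.12 (SD, n = 4) in Xiap-/- and 4.42 ± 0.14 (n = 6) in WT mice housed apart, with no overlap, which 1.05% of tested genes showed in that direction (difference -0.49, limma adjusted p = 0.0655). Irf1, the interferon-induced activator of Tap1 and Psmb9 in other settings, averaged 7.75 ± 0.13 in Xiap-/- and 8.0 ± 0.14 in WT mice housed apart (difference -0.25, limma adjusted p = 0.173). Stat2, a subunit of the type I interferon-activated factor, averaged 5.77 ± 0.18 in Xiap-/- and 6.06 ± 0.16 in WT mice housed apart (difference -0.29, limma adjusted p = 0.166). Co-housed, the differences of Irf1 and Stat2 were -0.04 and 0.0005, while that of Socs3 was -0.33 (limma adjusted p = 0.281). Those of Ifngr1 and Ifngr2 were 0.09 and 0.10 in co-housed mice.

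Of 20 interferon-gamma targets outside class I, 9 were tested, and 8 of them were below 0 between genotypes housed apart, with a median of -0.08. Among all tested genes 50.9% lay below 0. Of the 8, Gbp7 and Irgm2 were both at -0.0044. At an unadjusted p under 0.05 stood 1 of the 9, where 15.8% of all tested genes did. The most abundant of the 9, the GTPases Irgm1 (6.06) and Igtp (5.93), differed by -0.06 and 0.19. Ubd, the ubiquitin-like modifier FAT10 that sends proteins to the proteasome, was named after its values were seen. It averaged 4.49 ± 0.16 in Xiap-/- and 5.77 ± 0.86 in WT mice housed apart, a difference of -1.27 (interval -2.02 to -0.53, limma adjusted p = 0.11). Its groups did not overlap, which 1.05% of all tested genes showed in that direction. In co-housed mice it averaged 5.46 ± 0.12 in Xiap-/- and 5.36 ± 0.51 in WT mice, a difference of 0.10, and the interaction was 1.37 (interval 0.33 to 2.42, limma adjusted p = 0.605). Class II genes present peptides to CD4 T cells and are also raised by interferon-gamma. All 6 tested of 11 were below 0 between genotypes housed apart (median -0.35) and above 0 between co-housed genotypes (median 0.35). None of the 6 had an unadjusted p under 0.05 in either comparison, where 15.8% and 12% of all tested genes had. H2-Ab1, a class II beta chain and the most abundant (10.14), differed by -0.33 housed apart and 0.37 co-housed, and Cd74, the invariant chain (8.89), by -0.36 and 0.26. The interaction had a median of 0.66 for the 6 and a smallest limma adjusted p of 0.614.

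How reads were assigned bears on some of these genes. B2m lies wholly within Patl2 on the opposite strand, Psmb10 within the antisense gene Gm16156, and Psmb8 overlaps the antisense gene Gm20496 at its 3' end. Whether counting used strand is not given in the sources used here, so reads of such pairs may not be told apart. Class I heavy chains resemble each other in sequence. Of the 75-base windows in the last 500 bases of its transcripts, 1.8% of those of H2-K1 also occur in H2-D1, H2-Q1, H2-Q6, H2-Q7 or Gm7030, and 1.4% of those of Tapbp in Zbtb22. For the other 8 genes the share was 0%.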

How the data were processed

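The table was deposited by the authors as normalized log2 values for 23020 genes in 20 libraries, between -3.88 and 16.30. The submitters' processing notes name the tool DESeq2 (1.18.1) and the build GRCm38.p6, and how the values were transformed is not given in the sources used here. Counts are not in the table, so no counting interval is given. The values were analysed as deposited with limma 3.58.1 in R 4.3.3. Genes with a mean of at least 3.32 (log2 of 10) were tested, 9521 in all. Of the 23020 rows, 24 had names that had become dates, and these rows were kept. One model of 4 group means had 16 residual degrees of freedom, with a variance trend and robust moderation. Tests are two-sided, with Benjamini-Hochberg adjustment over all tested genes and a threshold of 0.05. Subunit differences and the Xiap transcript were compared by exact permutation tests over libraries. The model was tested on simulated data. No pair of libraries held identical values. The members, gene lists and alternatives were chosen with earlier results of these data known. Named genes are all 10 members and, of each pathway list, genes past the threshold and the 2 with the highest mean. Cell type marker lists did not follow this rule, and of some only the most abundant gene is named. Psmb5, Psmb6 and Psmb7 are named as partners of the inducible subunits. Some others are marked as named after their values were seen. Alternatives were another minimum mean, other scalings, variance models, library weights, a depth covariate, a block by replicate number and leaving out each library.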

Additional observations from a re-analysis of the deposited data

Results flagged for a closer look

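Of 52 groups of 4 to 6 libraries checked for a value far from the others, 2 held one, and chance alone gives about 1 in 20. The Nlrc5 level was 2.46 in Xiap-/- housed apart replicate 1, while the other 3 libraries of that group lay between 2.70 and 2.73. The log2 difference of Psmb10 to Psmb7 was 4.88 in WT housed apart replicate 5, while the other 5 WT libraries lay between 5.27 and 5.48. Without that WT library, 697 genes passed between genotypes housed apart, Tapbp among them. It also had the highest depth proxy of its group, and without it the proxy did not overlap between these genotypes.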

How the results depend on the processing

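Of 45 differences (9 genes, 5 comparisons), 1296 alternative values were computed, of which 3 passed the threshold and 40, from 11 differences that never passed, had the other sign. The count of genes past the threshold was 0 except between genotypes housed apart, where it was 2 with quality weights per library (Tapbp and Tap2) and 0 to 1 on leaving out each library (Tapbp, without WT housed apart replicate 5). The median difference moved from its main value by less than the spread between replicates (SD 0.138) in every alternative and, between genotypes housed apart, ran from -0.28 to -0.12 on leaving out each library. Over all genes, 43 passed in that comparison, against 3 with the depth covariate, 12 with the compared groups alone, 350 with the replicate block, and 9 (without Xiap-/- housed apart replicate 2) to 697 (without WT housed apart replicate 5) on leaving out each library. No label says that a replicate number is shared by mice of different groups. With group means removed, 10 of 27 same-number pairs of libraries from different groups had r over 0.1. Their median was 0.014, against -0.01 for other pairs, for which no count over 0.1 is given. These values cannot decide whether some numbers share a cage or batch. With the replicate block, 0 genes of the 9 passed in any comparison and the median housed apart was -0.26.

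Signs turned as follows, none of them past the threshold. Between housings of WT mice, quantile normalization gave 0.068 for Psmb10, 0.012 for Psmb8 and 0.024 for Psmb10 minus Psmb7. Between housings of Xiap-/- mice, H2-D1 was 0.012 with quality weights, H2-K1 0.041 with quantile normalization and 0.092 with weights, Tap2 -0.005 with quantile normalization, -0.004 with median centring and -0.175 with the depth covariate, and Tapbp -0.004 with that covariate. The interaction of B2m was 0.038 with weights and 0.042 with the depth covariate. On leaving out each library, H2-D1 ran from -0.193 to 0.035 between genotypes housed apart, from -0.067 to 0.026 co-housed, from -0.185 to 0.044 between housings of Xiap-/- mice and from -0.05 to 0.178 in the interaction. Psmb8 ran from -0.022 to 0.07 between co-housed genotypes and from -0.134 to 0.009 between housings of WT mice. Between housings of Xiap-/- mice H2-K1 ran from -0.119 to 0.115 and Tap2 from -0.089 to 0.167, and the interaction of B2m ran from -0.093 to 0.063. Psmb8 minus Psmb5 ran from -0.013 to 0.147 between housings of WT mice, and the Xiap transcript from -0.132 to 0.029 between co-housed genotypes, an alternative added after seeing the data. The causes of these turns were not tested.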
